A study of Mus musculus with 6 samples.

Results

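Transcripts of the proteasome were examined in 6 samples of mouse prostate tumours. The genes were taken from the deposited count table as all protein-coding symbols that begin with Psm, one of the letters a to g, and a digit. The rule found 49 genes of the 21718 in the table. They fall into the alpha ring of the 20S core (8 genes), the structural beta subunits (4), the constitutive catalytic beta subunits (3), the immunoproteasome catalytic subunits (3), the ATPases of the 19S cap (6), its non-ATPase subunits (11), activators (5), and assembly factors and regulators (8). Psmc3ip also matches the symbol rule but encodes a meiotic recombination protein and no subunit, and it was kept apart as the remaining gene. The thymus form of the catalytic subunit, Psmb11, was not analysed here.

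The proteasome is the large protease that cuts ubiquitin-tagged proteins into peptides. Its 20S core is a barrel of alpha and beta rings with the protein-cutting sites inside, and the 19S cap binds ubiquitin chains, unfolds the substrate and feeds it in. In leukocytes, and in other cells exposed to interferon-gamma, the 3 catalytic subunits Psmb5, Psmb6 and Psmb7 are replaced during assembly by Psmb8, Psmb9 and Psmb10, which gives the immunoproteasome, and its peptides are loaded onto MHC class I molecules.

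All 6 samples came from castration-resistant tumours of Ptenpc-/- recipient mice. Recipients were given 900 rad at the age of 6 weeks together with donor marrow, castrated at 8 weeks, and their tumours were taken 16 weeks after that. In the F10-intact group (3 samples, numbered 1, 3 and 4) the donors were F10fl/fl; LysM-Cre-, and in the F10-deleted group (3 samples, with the same numbers) they were F10fl/fl; LysM-Cre+. F10 encodes coagulation factor X. LysM-Cre is expressed from the Lyz2 locus in macrophages, monocytes and neutrophils, so the deletion concerns only cells made by the donor marrow, and the tumour cells and other host cells keep F10. Both groups share the Ptenpc-/- recipient, the irradiation, the transplant, the castration and the floxed F10 alleles. The labels do not say whether the samples came from separate animals, so the spread that enters each p-value may be technical.

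Total counts ranged from 9237308 to 11821588 per sample, and the genes matching the rule took 0.581% to 0.622% of them. CPM stands here for counts scaled by library size and TMM factors, and each log2 fold change is that of F10-deleted over F10-intact samples. Where 3 values are set against 3, the F10-intact samples come first, each in the order 1, 3 and 4. The targeted gene F10 had 2, 6 and 17 counts in F10-intact samples 1, 3 and 4 and 7, 4 and 9 counts in F10-deleted samples 1, 3 and 4, too few to check the deletion in the bulk tissue. Of the prostate epithelium markers, Krt8 was present at 1182, 1048 and 1180.4 CPM in F10-intact samples 1, 3 and 4 and 1237, 1209.8 and 965 CPM in F10-deleted samples 1, 3 and 4. The sum of 6 epithelial markers was 3490 to 4449 CPM in F10-intact and 3460 to 3653 CPM in F10-deleted samples, although Hoxb13 (76.04, 101 and 211 CPM against 60.8, 45.3 and 35.1 CPM) and Pbsn (37.2, 46.03 and 62.6 CPM against 4.52, 13.4 and 20.6 CPM) were lower in every F10-deleted sample. The sum of 8 skeletal muscle markers was 12.6 to 106 CPM in F10-intact and 685 to 1717 CPM in F10-deleted samples, that of 6 adipocyte markers 10.9 to 22.98 and 119 to 196 CPM, and that of 6 endothelial markers 25.6 to 44.9 and 48.3 to 62.7 CPM. The markers of these lists with the smallest p were Tnni2 (4.19 on the log2 scale) and Actn3 (3.85), Fabp4 (3.24) and Pck1 (4.78), and Emcn (0.69) and Plvap (0.92). Of these Fabp4 alone had an edgeR adjusted p under 0.05. DESeq2 called 7 of the 8 muscle markers, 3 of the 5 tested adipocyte markers and 0 of the 6 endothelial markers higher. It called 2 of the 6 epithelial markers lower, Hoxb13 and Pbsn. The sum of 6 fibroblast markers overlapped (1238 to 1461 and 1406 to 1489 CPM), but the collagen genes Col1a1 (log2 fold change 1.21), Col1a2 (0.89) and Col3a1 (0.88) did not, and DESeq2 called all 3 higher. The sum of 9 leukocyte markers also overlapped (738 to 1008 and 709 to 1364 CPM). Most of it was the MHC class II genes Cd74 (652, 565 and 422 CPM against 905, 469 and 571 CPM) and H2-Ab1, while the pan-leukocyte gene Ptprc had 42.1, 57.3 and 54.7 CPM against 44.3, 39.1 and 50.6 CPM. Of 8 macrophage and neutrophil markers 7 were below 0, with a median log2 fold change of -0.34, and Lyz2, the locus of the Cre, was above it at 101, 146 and 313 CPM against 255, 210.3 and 274 CPM. Their sum overlapped with Lyz2 (432 to 757 and 487 to 558 CPM) and did not without it, at 330.4, 356 and 444 CPM against 303, 277 and 254 CPM. S100a8 had 26.7, 46.5 and 62.9 CPM against 21.7, 27.2 and 32.2 CPM and Csf3r 42.9, 57.6 and 71.5 CPM against 28.98, 47.4 and 32.9 CPM, and neither passed the adjusted test. None of these markers was at 0 in all 6 samples. F10-intact sample 4 stood apart on the first principal component of all genes, which held 47.55% of the variance. In bulk tissue, fewer cells of a type and less RNA per cell cannot be told apart, and the part of these differences in the results that follow was not tested.

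No proteasome gene passed the test between the groups, and most had log2 fold changes slightly below 0. Of the 49 genes, 48 reached the count filter, Psmc3ip among them, the exception being the testis-type alpha subunit Psma8. None had an adjusted p under 0.05 in either direction by edgeR, and the lowest adjusted p was 0.274. Among all 15963 genes tested 0.0439% passed as higher and 0% as lower. DESeq2 called no proteasome gene either, against 2.32% of all genes with an adjusted p called higher and 0.861% called lower. At an edgeR p under 0.05 before adjustment, 3 of the 48 were lower (6.25%, against 4.74% of all genes) and 0 were higher (against 6.15%).

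The log2 fold change was below 0 for 35 of the 48 genes (72.9%), against 52.7% of all genes tested, and the median was -0.066, against -0.020 over all genes. For 7 genes (14.6%) every F10-deleted sample lay below every F10-intact sample, which held for 7.67% of all genes. The reverse was seen for 0 of the 48 and for 8.99% of all genes. The 7 were Psma7, Psmb3, Psmb5, Psmc3, Psmc4, Psmd7 and Psmg2. The genes of 1 complex share samples and vary together, so these counts are not separate pieces of support.

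The differences were small. The median size of the log2 fold change was 0.106, against 0.209 over all genes. The median SD of log2 CPM over the 6 samples was 0.172, against 0.285. The median SE was also smaller, 0.152 against 0.229, and no comparison with genes of like level was made. The 95% interval of each of the 48 log2 fold changes lay within -1 and 1, so a 2-fold change of the group mean in either direction was outside the interval for all of them. The intervals reached from 0.258 to 0.752 log2 units on either side of the estimate, with a median of 0.352.

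**Figure D1:**
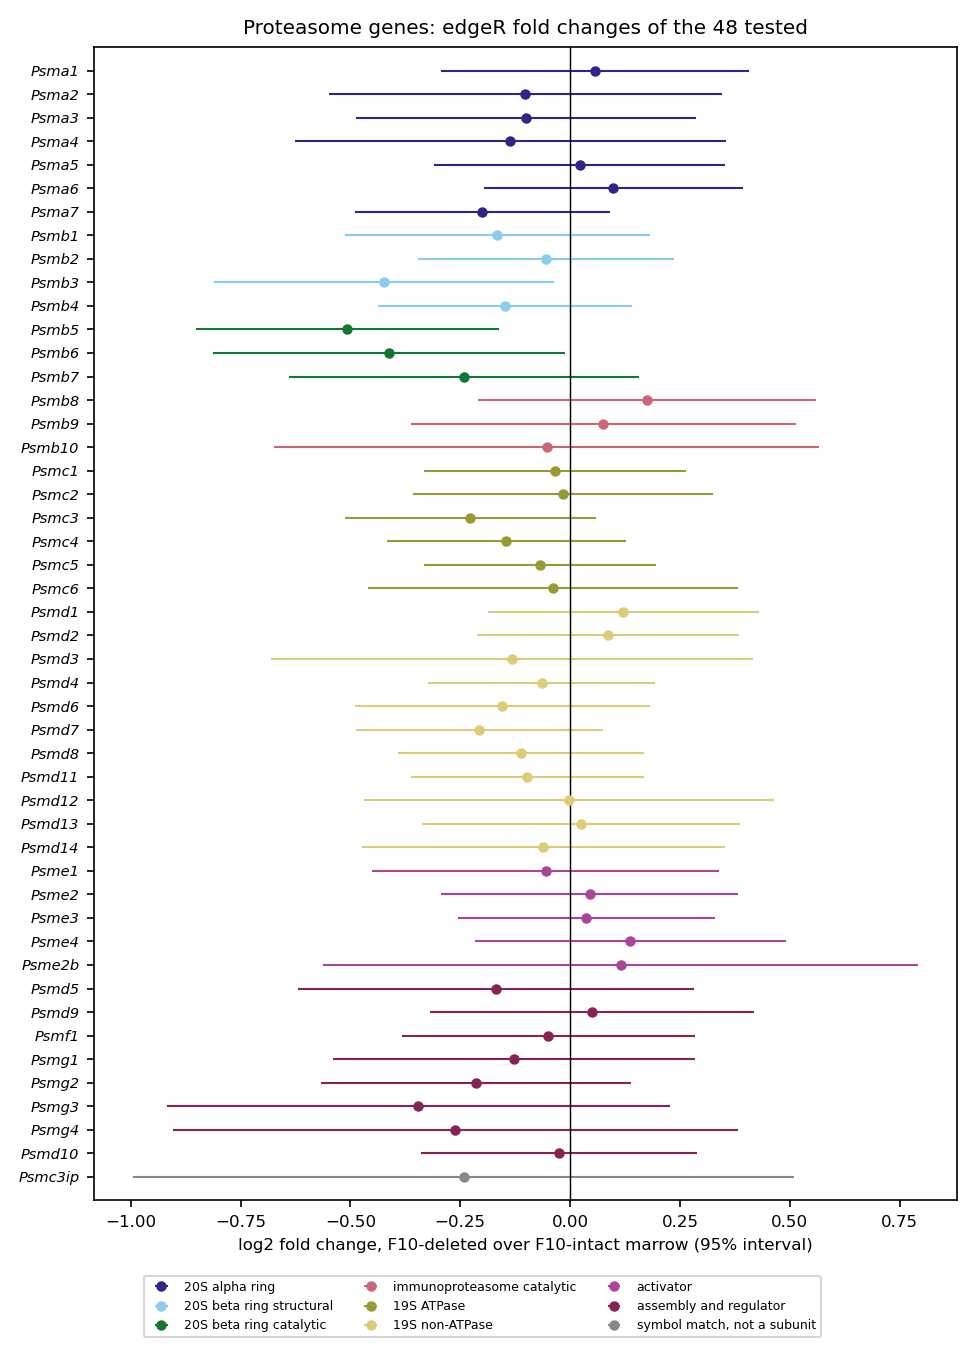
Log2 fold change (F10-deleted over F10-intact, horizontal axis) of each of the 48 tested genes, grouped by class on the vertical axis, where points are edgeR estimates and bars are 95% intervals. The 3 constitutive catalytic subunits sit furthest to the left as a class, with a median of -0.41, and 3 of the 48 intervals leave out 0.

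The 3 constitutive catalytic subunits had the lowest values of any class, with a median log2 fold change of -0.41. Psmb5 carries the chymotrypsin-like site, Psmb6 the caspase-like site and Psmb7 the trypsin-like site of the core. Their summed level was 401, 387 and 523 CPM in F10-intact samples 1, 3 and 4 and 355, 330 and 342 CPM in F10-deleted samples 1, 3 and 4. The groups did not overlap in this sum, and F10-intact sample 4 was the highest.

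Psmb5 (chr14:54614119-54618022, minus strand, ENSMUSG00000022193, GRCm38) had 55.4, 50.7 and 66.4 CPM in F10-intact samples 1, 3 and 4 and 42.6, 41.1 and 37.5 CPM in F10-deleted samples 1, 3 and 4. All F10-deleted samples were below all F10-intact samples, and the F10-deleted values lay closer together. The means were 57.5 ± 8.06 CPM with F10 intact and 40.4 ± 2.62 CPM with F10 deleted (SD, n = 3 per group), a log2 fold change of -0.51 with an SE of 0.15 and a 95% interval of -0.85 to -0.16. The edgeR p was 0.00974 before adjustment and 0.274 after adjustment over all genes, so the difference did not pass the threshold.

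Psmb6 (chr11:70525367-70527858, plus strand, ENSMUSG00000018286) had 201, 162 and 237 CPM in F10-intact samples 1, 3 and 4 and 171, 140.3 and 139.8 CPM in F10-deleted samples 1, 3 and 4. The groups overlapped, since F10-deleted sample 1 lay above F10-intact sample 3. Its log2 fold change was -0.41 with an SE of 0.17, with an interval of -0.81 to -0.012 and an edgeR p of 0.045, adjusted 0.441.

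Psmb7 (chr2:38588036-38644087, minus strand, ENSMUSG00000026750) had 145, 174 and 219 CPM in F10-intact samples 1, 3 and 4 and 142, 148 and 164 CPM in F10-deleted samples 1, 3 and 4. F10-intact sample 4 was far above the other values, which otherwise overlapped. On the log2 scale Psmb7 was at -0.24 with an SE of 0.17 (edgeR adjusted p = 0.671), and without F10-intact sample 4 it was -0.076. Without that sample Psmb6 was at -0.27 and Psmb5 at -0.39. The exons of Psmb7 overlap those of Nek6 on the opposite strand over 11.8% of their length, and the strand setting of the counting is not given in the sources used here.

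The sequence before the start sites is shown for the 3 genes with an edgeR p under 0.05 before adjustment. All 3 were lower in the F10-deleted samples: Psmb5, Psmb6 and Psmb3, a structural subunit of the beta ring. Each is 150 bases from RefSeq on GRCm38.p6, read 5′ to 3′ on the gene's strand, from the stretch nearest the start site that lies in no annotated exon. They are chr14:54618023-54618172 (minus strand), chr11:70525207-70525356 (plus strand) and chr11:97703249-97703398 (plus strand). Capitals mark matches, on either strand, to letters searched for in the 250 bases before the start: the core of the antioxidant response element (TGACNNNGC), which NRF-family factors bind, the interferon-stimulated response element (GAAANNGAA) and the CCAAT box (CCAAT).
Psmb5: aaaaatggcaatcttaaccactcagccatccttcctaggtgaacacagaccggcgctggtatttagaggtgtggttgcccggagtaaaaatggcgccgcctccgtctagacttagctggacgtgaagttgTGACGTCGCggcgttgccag
Psmb6: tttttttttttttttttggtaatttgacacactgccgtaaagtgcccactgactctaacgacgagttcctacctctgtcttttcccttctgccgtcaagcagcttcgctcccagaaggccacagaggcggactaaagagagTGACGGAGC
Psmb3: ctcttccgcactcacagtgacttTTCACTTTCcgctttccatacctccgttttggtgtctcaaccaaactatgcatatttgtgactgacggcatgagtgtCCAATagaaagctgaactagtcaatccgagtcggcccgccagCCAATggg
The antioxidant element core was found in Psmb5 (TGACGTCGC, 47 to 39 bases before the start) and in Psmb6 (TGACGGAGC, 9 to 1 bases before it). It was found in 5 of the 44 promoters of genes matching the symbol rule (11.4%) and in 10.2% of all 32851 promoters. These 44 promoters belong to 41 genes, Psmc3ip among them. Psmb3 held the reverse complement of an interferon-stimulated element (TTCACTTTC), a motif found in 3 of the 44 promoters (6.82%) and in 7.13% of all promoters. It also held 2 CCAAT boxes, a motif found in 14 of the 44 promoters (31.8%) and in 33.8% of all promoters. A match is a run of letters and not evidence of binding.

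The immunoproteasome subunits lay close to 0, where their constitutive counterparts all lay below it. Psmb8 replaces Psmb5, Psmb9 replaces Psmb6 and Psmb10 replaces Psmb7. Their summed level was 316, 246 and 251 CPM in F10-intact samples 1, 3 and 4 and 322, 236 and 311 CPM in F10-deleted samples 1, 3 and 4, and these ranges overlapped. The median log2 fold change of the 3 genes was 0.076, with 2 above and 1 below 0, and none passed the test. Leaving out 1 sample moved this median to between -0.0027, when F10-intact sample 3 was left out, and 0.27, when F10-deleted sample 3 was.

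Psmb8 (chr17:34197721-34201454, plus strand, ENSMUSG00000024338) had 149.7, 129.7 and 120.1 CPM in F10-intact samples 1, 3 and 4 and 155, 122 and 174 CPM in F10-deleted samples 1, 3 and 4. F10-deleted sample 4 was the highest, and F10-deleted sample 3 lay among the F10-intact values. The log2 fold change was 0.18 with an SE of 0.17, with an interval of -0.21 to 0.56 and an edgeR adjusted p of 0.765. Leaving out F10-deleted sample 4 gave 0.057, and leaving out F10-deleted sample 3 gave 0.33. The promoter window searched for Psmb8 began at chr17:34197945, inside the gene span given above. The RefSeq start used for it therefore lies within that span and is not its first base. The window held a gamma-activated site (TTCNNNGAA, here TTCCCAGAA) 97 to 89 bases before that RefSeq start. That motif was found in 2 of the 44 promoters of genes matching the symbol rule (4.55%) and in 7.02% of all promoters.

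Psmb9 (chr17:34181987-34187764, minus strand, ENSMUSG00000096727) had 82.2, 63.9 and 69.2 CPM in F10-intact samples 1, 3 and 4 and 80.4, 57.7 and 88.9 CPM in F10-deleted samples 1, 3 and 4. As for Psmb8, F10-deleted sample 4 was the highest and sample 1 of each group came next, and here F10-deleted sample 3 was the lowest. Its fold change on the log2 scale was 0.076 with an SE of 0.19 (edgeR adjusted p = 0.930). Without F10-deleted sample 4 it was -0.057.

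Psmb10 (chr8:105935735-105938444, minus strand, ENSMUSG00000031897) had 83.6, 51.9 and 62.2 CPM in F10-intact samples 1, 3 and 4 and 87.05, 55.8 and 47.8 CPM in F10-deleted samples 1, 3 and 4. Here sample 1 of each group was high, and F10-deleted sample 4, which held the highest Psmb8 and Psmb9, had the lowest value. For Psmb10 the log2 fold change was -0.053 with an SE of 0.27, with the widest interval of the 6 catalytic genes, -0.67 to 0.57 (edgeR adjusted p = 0.968). Leaving out F10-intact sample 1 gave 0.18, and leaving out F10-deleted sample 1 gave -0.31.

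Psmb8 and Psmb9 lie 9956 bases apart in the MHC class II region of chromosome 17, beside the peptide transporter genes Tap1 and Tap2, whereas Psmb10 is on chromosome 8. Psmb8 is 495 bases from Tap1 and 2072 bases from Tap2. The annotated exons of Psmb9 and Tap1 overlap by 212 bases on opposite strands, so some of their reads may not be assigned with certainty. Tap1 itself had 93.7, 82.3 and 67.1 CPM against 107, 77.7 and 119 CPM (F10-intact against F10-deleted, samples 1, 3 and 4 in each), with F10-deleted sample 4 highest as for Psmb8 and Psmb9.

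**Figure D2:**
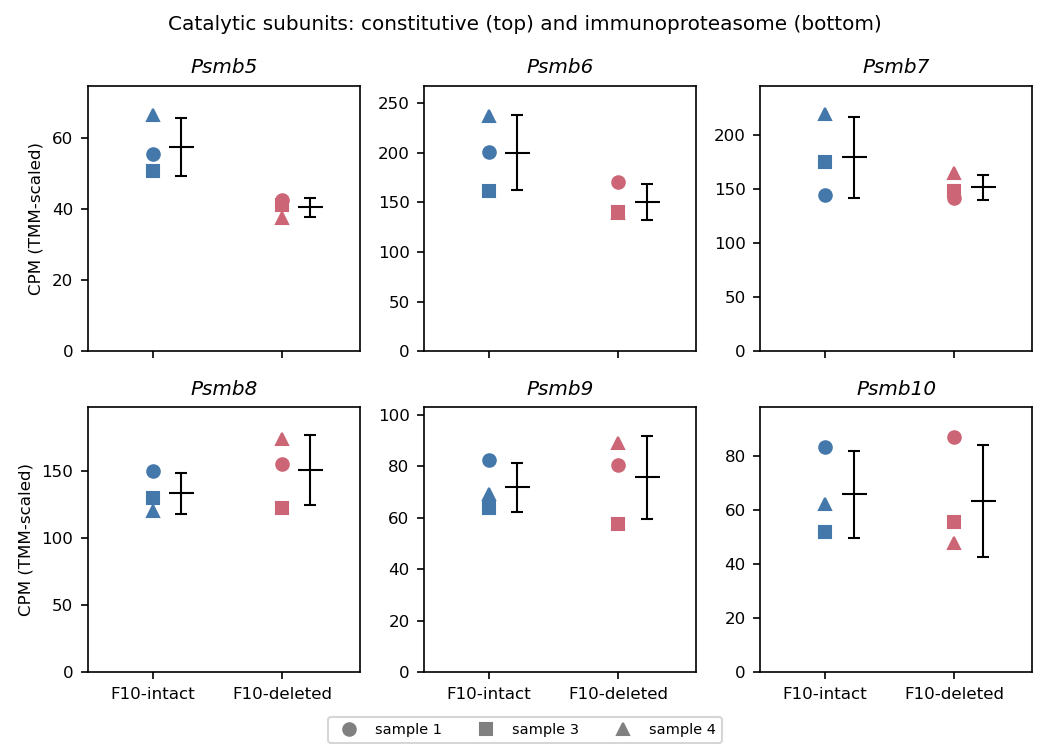
Level in CPM (vertical axis) of the 3 constitutive catalytic subunits and the 3 immunoproteasome subunits in each sample, where symbols are samples and the black bars beside them are the group mean ± SD of 3 samples. Psmb5 separates the groups, at 50.7 to 66.4 CPM against 37.5 to 42.6 CPM, while Psmb8, Psmb9 and Psmb10 overlap.

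Assembled cores were not measured. The balance of the 2 kinds of catalytic transcript was read from the ratio of each immunosubunit to the subunit it replaces. The ratio is given as the log2 of CPM per kilobase of exon. For Psmb8 over Psmb5 it was -0.48, -0.55 and -1.06 in F10-intact samples 1, 3 and 4 and -0.052, -0.34 and 0.30 in F10-deleted samples 1, 3 and 4. Every F10-deleted sample lay above every F10-intact sample. The group means were -0.70 ± 0.31 and -0.029 ± 0.32 (SD, n = 3 each), a difference of 0.67. The exact two-sided permutation test gave p = 0.1, the smallest that 3 against 3 samples allow, and 0.15 after Benjamini-Hochberg adjustment over the 3 pairs.

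For Psmb9 over Psmb6 the log2 ratio was -2.26, -2.31 and -2.75 in F10-intact samples and -2.05, -2.25 and -1.62 in F10-deleted samples. These groups did not overlap either, though F10-deleted sample 3 and F10-intact sample 1 were nearly level. The difference was 0.46 (exact permutation p = 0.1, adjusted 0.15). With 3 samples a group this test cannot pass 0.05.

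The log2 ratio of Psmb10 to Psmb7 was 0.22, -0.74 and -0.81 in F10-intact samples and 0.30, -0.41 and -0.78 in F10-deleted samples. The groups overlapped, with sample 1 of each high and the other 4 low (difference 0.15, exact permutation p = 0.6, adjusted 0.6). Whether the 3 pairs differ from each other was not tested. The labels do not state that samples of the same number are pairs. With samples paired by replicate number, each of the 3 ratios was higher in the F10-deleted sample of all 3 numbers. The exact paired permutation test gave p = 0.25 for each ratio, the smallest it allows with 3 numbers.

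With the length of the principal coding transcript in place of all exons, a length chosen after the values were seen, Psmb8 was at 1.49, 1.41 and 0.999 times the level of Psmb5 in F10-intact samples and at 2.003, 1.65 and 2.56 times in F10-deleted samples. A change of length multiplies each ratio by a constant and leaves the difference between the groups as it was. The absolute balance of transcripts does depend on it: with all exons the same ratios were 0.719, 0.681 and 0.481 against 0.965, 0.792 and 1.23.

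Summed over the 6 catalytic subunits per length of all exons, the immunosubunits made up 35.4%, 30.8% and 25.6% in F10-intact samples 1, 3 and 4 and 39.7%, 34.1% and 38.7% in F10-deleted samples 1, 3 and 4. These shares overlapped, since F10-intact sample 1 was above F10-deleted sample 3. With the principal transcripts they were 28.5% ± 4.79 and 34.9% ± 3.01 (SD, n = 3 each). The summed leukocyte markers were 1008, 883 and 738 CPM in F10-intact samples 1, 3 and 4 and 1364, 709 and 897 CPM in F10-deleted samples 1, 3 and 4. Within each group the share and this sum had the same order, but the sum is mostly Cd74 and H2-Ab1. Ptprc had another order, with F10-intact sample 1 the lowest and F10-deleted sample 4 the highest of their groups. The part of leukocyte content in the ratios was not tested. Within each replicate number the share was higher in the F10-deleted sample.

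**Figure D3:**
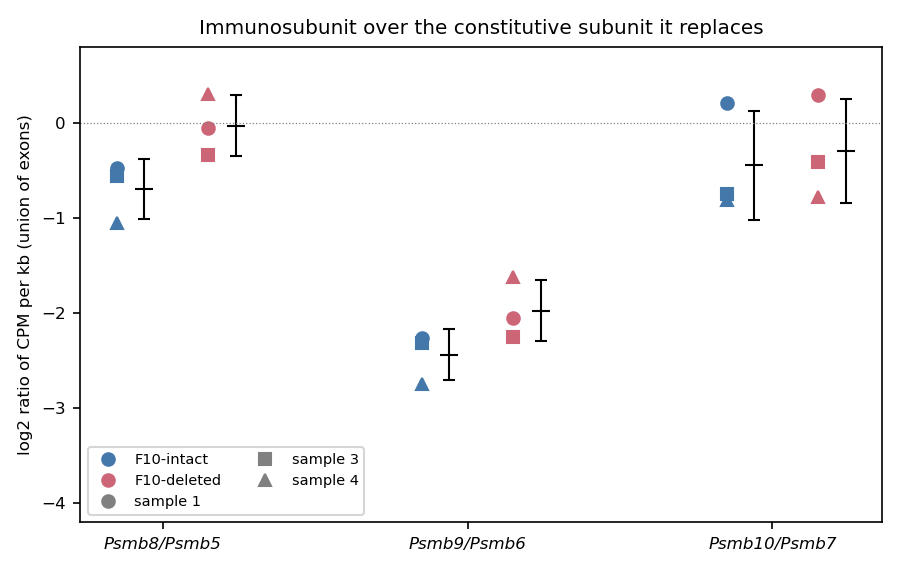
Log2 ratio of each immunosubunit to the constitutive subunit it replaces, per kilobase of exon (vertical axis), in each sample of both groups, with the group mean ± SD of 3 samples as black bars. Psmb8/Psmb5 and Psmb9/Psmb6 do not overlap between groups (differences of 0.67 and 0.46), and Psmb10/Psmb7 does.

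The 4 structural beta subunits, which have no cutting site, were all below 0, with a median log2 fold change of -0.16, or -0.077 without F10-intact sample 4. Their summed level was 701, 705 and 863 CPM in F10-intact samples and 654, 628 and 699 CPM in F10-deleted samples, without overlap, although F10-deleted sample 4 and F10-intact sample 1 were nearly equal. Psmb3 (chr11:97703399-97713500, plus strand, ENSMUSG00000069744) had 147, 145 and 203 CPM in F10-intact samples 1, 3 and 4 and 133, 114 and 122 CPM in F10-deleted samples 1, 3 and 4. The groups did not overlap for Psmb3, and F10-intact sample 4 was again well above the rest. Its log2 fold change was -0.42 with an SE of 0.17, with an interval of -0.81 to -0.037, an edgeR p of 0.0356 and an adjusted p of 0.414, and without F10-intact sample 4 it was -0.25. Psmb4 had 216, 202 and 232 CPM against 189, 187 and 210.3 CPM and a log2 fold change of -0.15 with an SE of 0.12 (edgeR adjusted p = 0.731). Psmb1 and Psmb2 lay between -0.17 and -0.055.

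The alpha ring forms the gate through which substrates enter the core. Of its 7 tested genes, 3 were above and 4 below 0, with a median of -0.10. Psma7 had 189, 189.9 and 219 CPM against 172, 165 and 184 CPM (F10-intact against F10-deleted) and did not overlap between the groups, with a log2 fold change of -0.20 with an SE of 0.13 (edgeR adjusted p = 0.625). Psma6 was in the other direction at 0.10 with an SE of 0.13 (adjusted p = 0.842), from 109, 125 and 123 CPM against 116, 135 and 133 CPM, and its groups overlapped. The other 5 ranged from -0.14 to 0.056. Leaving out F10-intact sample 4 moved the alpha-ring median to 0.081, and leaving out F10-deleted sample 1 moved it to 0.017. Psma8, which replaces Psma7 in the testis proteasome, had 1, 2 and 3 counts in F10-intact samples and 0, 1 and 2 counts in F10-deleted samples, and no fold change is given for it.

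The 6 ATPases of the 19S cap, which unfold substrates, were all below 0 but by little, from -0.23 to -0.016 with a median of -0.053. Psmc3 had 229, 233 and 258 CPM in F10-intact samples 1, 3 and 4 and 218, 201 and 196 CPM in F10-deleted samples 1, 3 and 4. All F10-deleted values were below the F10-intact values, and the log2 fold change was -0.23 with an SE of 0.12 with an interval of -0.51 to 0.059 (edgeR adjusted p = 0.566). Psmc4 had 134, 142 and 150.4 CPM against 123, 130.1 and 134 CPM, also without overlap, and a log2 fold change of -0.15 with an SE of 0.12 (adjusted p = 0.719). The other 4 lay between -0.068 and -0.016. Psmc5, the steadiest of them, had a highest sample only 1.11 times its lowest. The exons of Psmc3 overlap those of Slc39a13 on the opposite strand over 8.25% of their length. The median of the class was 0.0051 without F10-deleted sample 1.

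Among the 11 non-ATPase subunits of the cap, which hold the ubiquitin receptors and the deubiquitinase Psmd14, 3 were above and 8 below 0, with a median of -0.065. Psmd7, the partner of Psmd14, had 141, 156 and 166 CPM in F10-intact samples 1, 3 and 4 and 129, 138 and 135 CPM in F10-deleted samples 1, 3 and 4. Its groups did not overlap, and its log2 fold change was -0.21 with an SE of 0.12 (edgeR adjusted p = 0.6004). Psmd6 had 83.2, 95.9 and 111 CPM against 82.5, 84.5 and 93.7 CPM, overlapping, with a log2 fold change of -0.15 with an SE of 0.14 (adjusted p = 0.761). The other 9 ranged from -0.13 to 0.12.

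The steadiest and the most variable genes of the cap were both non-ATPases, named after their values were seen. Psmd4, a ubiquitin receptor, differed by 1.11 times between its highest and its lowest sample. Psmd3 differed by 1.93 times, at 125, 101 and 102 CPM against 129.7, 103 and 67.1 CPM, with F10-deleted sample 4 below the other 5 samples.

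Activators open the gate of the core in place of the cap or beside it. Psme1 and Psme2 form the interferon-inducible PA28 ring, Psme3 forms the nuclear PA28-gamma ring and Psme4 is PA200. Psme1 had 305, 218 and 283 CPM against 279, 223 and 274 CPM and a log2 fold change of -0.055 with an SE of 0.17 (edgeR adjusted p = 0.942). Psme2 had 245, 262 and 279 CPM against 247, 249.8 and 314 CPM and 0.044 with an SE of 0.15 (adjusted p = 0.946). These partner genes lie 5911 bases apart on chromosome 14, and sample 3 of each group was the lowest for Psme1 and not for Psme2. Psme3 was at 0.037 with an SE of 0.13 (adjusted p = 0.949) and Psme4 at 0.14 with an SE of 0.15 (adjusted p = 0.809), from 137, 185 and 164 CPM against 161, 195 and 177 CPM. The groups overlapped for all 4. Psme2b, a near-identical copy of Psme2 whose reads cannot be assigned with certainty, was at 0.11 with an SE of 0.29.

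The 8 assembly factors and regulators, which help to build the core and the cap or hold them in check, had 1 value above and 7 below 0, with a median of -0.15. Psmg1 to Psmg4 are chaperones of the alpha ring. Psmg2 had 36.3, 34.1 and 34.6 CPM against 33.5, 25.4 and 31.6 CPM, without overlap, and a log2 fold change of -0.21 with an SE of 0.15 (edgeR adjusted p = 0.670). Psmg3 had 12.6, 8.91 and 10.8 CPM against 10.2, 6.94 and 8.27 CPM and the lowest value of the class, -0.35 with an SE of 0.25 (adjusted p = 0.674), but its groups overlapped. The class median was -0.030 without F10-deleted sample 3. The other 6 ranged from -0.26 to 0.050. Psmc3ip, the gene that is no subunit, had 71, 62 and 33 counts in F10-intact and 44, 43 and 55 counts in F10-deleted samples.

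Sample 4 of the F10-intact group had the highest level more often than any other sample. It was the highest of the 6 samples for 22 of the 48 genes, including all 3 constitutive catalytic and all 4 structural beta subunits and 5 of the 6 ATPases. It was the highest for 0 of the 3 immunosubunits and 0 of the 5 activators. The share of all genes that were highest in this sample was not counted. F10-intact sample 4 stood apart over all genes too, and its TMM factor was the lowest (0.918, against 0.989 to 1.033). Whether these counts differ from those of other genes was not tested. Averaged over each class, the log2 CPM of F10-intact sample 4 stood 0.45 above the gene's mean over 6 samples for the constitutive catalytic subunits. It was 0.30 above for the structural beta subunits, 0.23 for the alpha ring and 0.17 for the ATPases, and 0.11 below for the immunosubunits. F10-deleted sample 4 also had a high alpha ring (0.15 above), but its constitutive catalytic subunits were 0.22 below the mean. The lowest sample was F10-deleted sample 1 for 12 genes, F10-deleted sample 3 for 12, F10-intact sample 1 for 11 and F10-deleted sample 4 for 7.

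**Figure D4:**
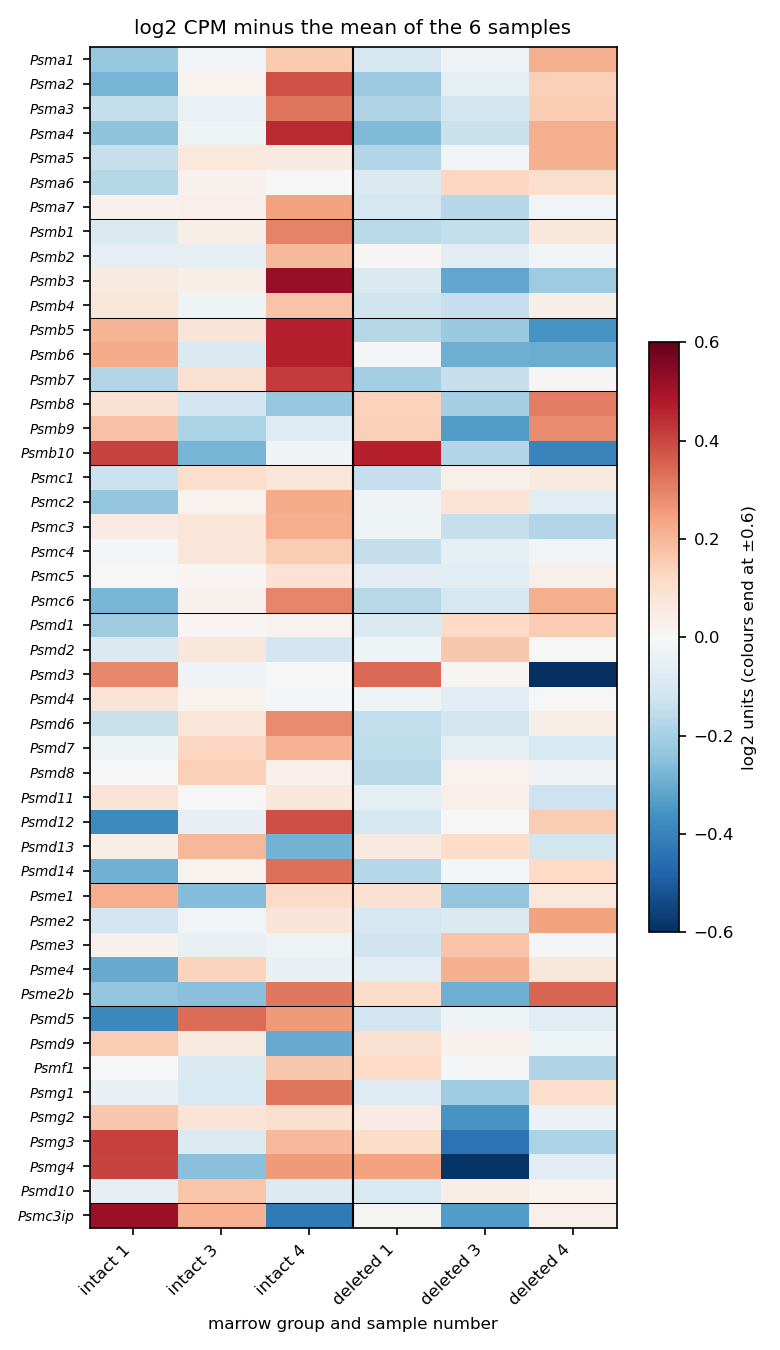
Deviation of log2 CPM from the gene's mean over 6 samples (colour) for each of the 48 tested genes (rows, by class) in each sample (columns). F10-intact sample 4 is the highest for 22 of the 48 genes, with no share over all genes counted. The constitutive catalytic rows are below the gene's mean in all 3 F10-deleted samples when averaged over the class.

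Within the complex, transcript levels were spread widely although most subunits enter it in equal numbers. Levels between genes are compared per kilobase of principal transcript, as means ± SD over all 6 samples. The most abundant were Psme2 at 277 ± 27.6 CPM per kilobase, Psme1 at 237 ± 31.5, Psmb6 at 219.6 ± 47.5, Psma7 at 204 ± 20.6 and Psmb3 at 188 ± 41.5. The ranges over the 6 samples of neighbours in this order overlapped.

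Psmb5, at 54.4 ± 11.97 CPM per kilobase, was the lowest of the tested constitutive core subunits by this measure and 4.03-fold below Psmb6, the highest catalytic subunit. Psmb7 was at 143 ± 25.02. Psmb8 (87.1 ± 13.03) was above Psmb5, while Psmb9 (54.5 ± 8.88) and Psmb10 (49.4 ± 12.7) were within 1 SD of it. Class medians were 157 CPM per kilobase for the structural beta subunits, 119 for the tested alpha subunits, 105 for the ATPases, 62.2 for the non-ATPases and 19.96 for assembly factors and regulators, most of which are not part of the finished complex. Psme2b stood at 7.804 ± 1.61 and Psma8 at 0.0818 ± 0.0626. The order depends on the length used, since the union of exons was 1 to 3.36 times as long as the principal transcript. With all exons Psmb5 (54.4) was above Psmb7 (48.3).

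**Figure D5:**
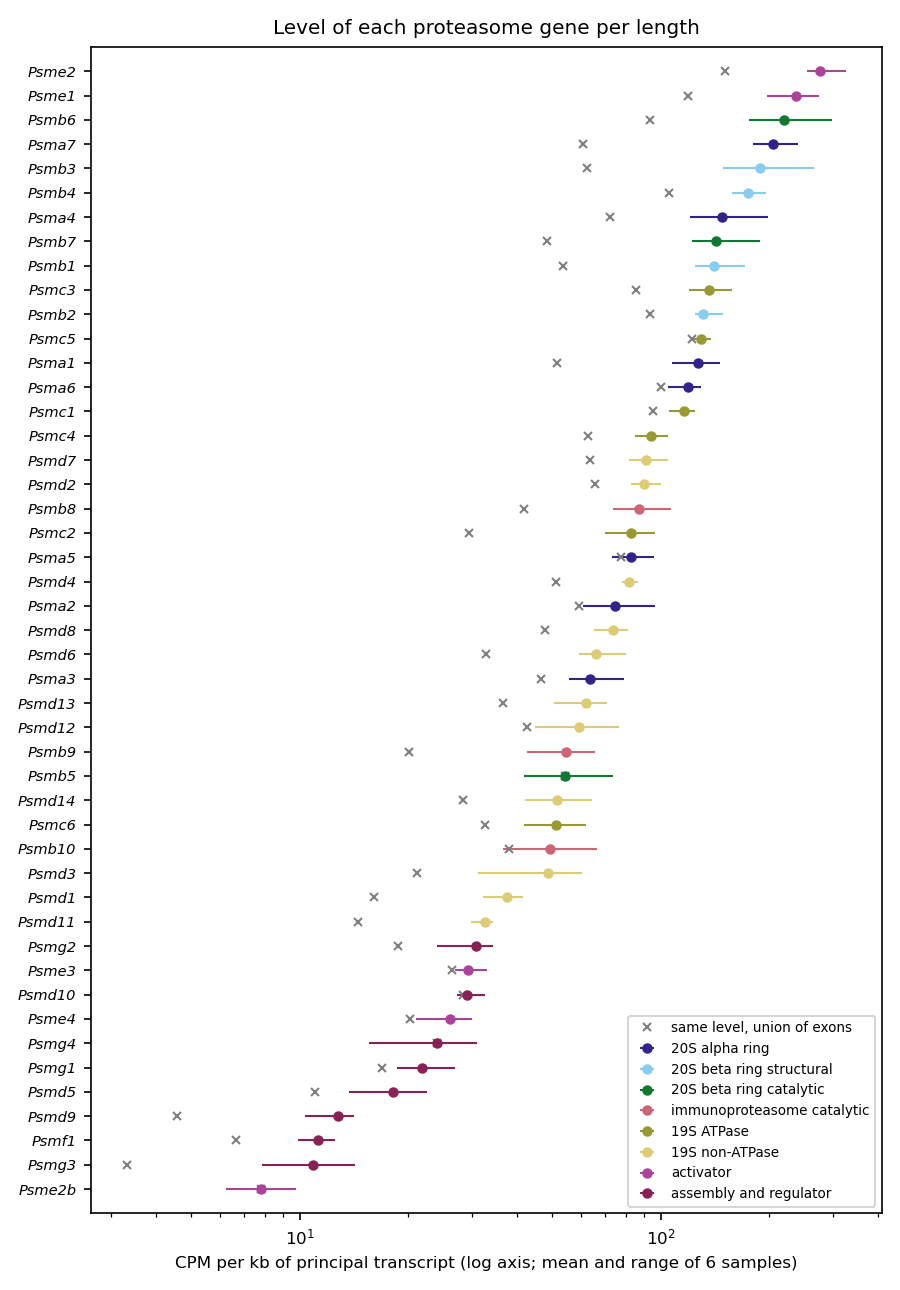
Level in CPM per kilobase of principal transcript (log axis) for the tested genes with a subunit, activator or assembly role, ordered by level and coloured by class, where points are means and lines the range of 6 samples, and crosses show the mean per kilobase of all exons. Psme2 and Psme1 are at the top (means of 277 and 237), assembly factors and regulators lie low (10.9 to 30.8), and the crosses show how far the length used moves each level.

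None of the other genes of the pathway that were examined passed the test. Of 10 further proteasome factors, such as the ubiquitin receptor Adrm1 and the maturation factor Pomp, 3 were above and 7 below 0. The members with the smallest p were Fbxo7, at -0.17 with an SE of 0.13 (edgeR adjusted p = 0.694), and the small cap subunit Sem1, at -0.22 with an SE of 0.17 (adjusted p = 0.711). Of 17 genes for ubiquitin, its enzymes and shuttle factors, 5 were above and 12 below 0. Ufd1, a cofactor of the unfoldase Vcp, was at -0.29 with an SE of 0.14 (adjusted p = 0.513), and the polyubiquitin gene Ubb at -0.36 with an SE of 0.20 (adjusted p = 0.585).

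The factors that switch proteasome genes on include Nfe2l1, which raises them when the proteasome is blocked. Of 10 genes on this list 6 were above and 4 below 0. Nfe2l3, a relative of Nfe2l1, had 20.2, 22.6 and 31.4 CPM in F10-intact samples 1, 3 and 4 and 31.7, 67.8 and 45.8 CPM in F10-deleted samples 1, 3 and 4. Every F10-deleted sample was above every F10-intact sample, though F10-intact sample 4 and F10-deleted sample 1 were nearly level. Its log2 fold change was 0.97 with an SE of 0.30 (edgeR adjusted p = 0.301, and 0.0126 before adjustment). Nfe2l2, the factor of the oxidative stress response, was at 0.30 with an SE of 0.19 (adjusted p = 0.625).

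Most genes that act with the immunoproteasome had log2 fold changes above 0. Of 15 genes of MHC class I presentation, 11 were above and 4 below 0, with a median of 0.040, and of 18 tested genes of the interferon response 16 were above and 2 below 0, with a median of 0.30. The interferon-gamma gene itself, Ifng, had 5, 2 and 3 counts in F10-intact samples and 3, 2 and 9 counts in F10-deleted samples and was not tested. Usp18, an interferon-induced protease, had 57.7, 39.6 and 36.4 CPM in F10-intact samples 1, 3 and 4 and 63.2, 58.2 and 103 CPM in F10-deleted samples 1, 3 and 4. Its groups did not overlap, and F10-deleted sample 4 was the highest, as it was for Psmb8 and Psmb9. The log2 fold change of Usp18 was 0.75 with an SE of 0.27 (edgeR adjusted p = 0.368) and that of the guanylate-binding protein Gbp2 0.64 with an SE of 0.27 (adjusted p = 0.458). Without F10-deleted sample 4 they were 0.44 and 0.29. The summed level of the interferon genes was 1487, 1221 and 1199 CPM in F10-intact samples and 1437, 1173 and 2075 CPM in F10-deleted samples, so only F10-deleted sample 4 lay above the F10-intact range.

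In the MHC class I list Calr, a chaperone of the peptide-loading complex, was lower without overlap at -0.48 with an SE of 0.19 (adjusted p = 0.405), and the class I gene H2-Q4 was at 0.35 with an SE of 0.17 (adjusted p = 0.513). Reads of class I genes may be shared between near-identical copies.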

How the data were processed

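Poly-A RNA of 6 tumour samples (3 per group) was sequenced, per the labels' protocols, in stranded libraries with 120-base single reads. Raw read counts per Ensembl gene were deposited by the authors. STAR 2.7.10a, DESeq2 (no version) and GRCm38 are named per the submitters' processing notes, while the counting program and strand setting were not given in the sources used here. Symbols and positions came from GENCODE M21 (GRCm38), with 21605 of 21718 identifiers matched, and promoters from RefSeq (GRCm38.p6, 41 of 49 genes matched).

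Counts were tested with edgeR 4.0.16 (R 4.3.3, quasi-likelihood, TMM factors, filterByExpr with a minimum count of 10), fitted on all 15963 genes that passed, with Benjamini-Hochberg adjustment and a threshold of 0.05. The SE is the size of the log2 fold change over the square root of F. Ratios of subunits used log2 CPM per kilobase and exact two-sided permutation tests. Intervals cover the spread between samples.

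The members and lists were chosen with earlier results of these data known. Named are the catalytic subunits, Psme1 to Psme4, and the 2 tested genes with the smallest p in each other class and companion list. Krt8, Lyz2, H2-Ab1, Col3a1, Nek6, Slc39a13, Tap1, Ifng, Psma8, Psmc3ip, Psmb1, Psmb2, Psmc5, Psmd3, Psmd4, Psme2b, Adrm1 and Pomp stand outside that rule. The labels do not say whether the replicate numbers are pairs, and the main fit did not use them. Deviations from the group mean correlated within each number (0.372, 0.140 and 0.186, across genes). Samples of different numbers were not compared in this way, so the correlations cannot show pairing. The replicate block was an alternative. Others were DESeq2 1.42.0, limma-voom (limma 3.58.1), upper quartile or RLE scaling, TMM with the 50 most abundant genes left out, no filter, 1 CPM in 3 samples, leaving out each sample, and, added after seeing the data, the length of the principal transcript. Same-group samples differed beyond sampling noise (chi-square per degree of freedom 24.4 to 85.4).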

Additional observations from a re-analysis of the deposited data

How the results depend on the processing

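No proteasome gene was called in any setting. With the replicate block in the edgeR fit, 0 genes were called and 3 had an unadjusted p under 0.05 lower and 0 higher. For the proteasome genes this was as without it, so the block changed no call among them. At that unadjusted threshold the block fit had 1079 genes lower and 1220 higher of all 15963, against 756 and 981 without it. Over all genes edgeR called 7 higher and 0 lower, the replicate block 1 and 1, and DESeq2 355 and 132. The other scalings, filters and tools gave 2 or 3 proteasome genes lower at an unadjusted p under 0.05 and kept the sign of each named log2 fold change. Leaving out 1 sample gave 1 to 3 such lower proteasome genes, with 1 gene each without F10-intact sample 4, F10-deleted sample 3 and F10-deleted sample 4. Under the same omissions the alpha-ring median ran from -0.20 to 0.081, the ATPase median from -0.13 to 0.0051, the activator median from -0.045 to 0.14, the median of assembly factors and regulators from -0.195 to -0.030, the log2 fold change of Psmb9 from -0.057 to 0.27, of Psmb10 from -0.31 to 0.18, of Psme1 from -0.19 to 0.076, of Psme2 from -0.078 to 0.14 and of Psme3 from -0.014 to 0.13, and the Psmb10/Psmb7 difference from -0.14 to 0.48. The log2 fold change of Psmb5 ran from -0.59 to -0.39, and the Psmb8/Psmb5 and Psmb9/Psmb6 differences from 0.49 to 0.82 and from 0.29 to 0.60. The cause of these shifts was not tested. With 3 samples per group, a median interval of 0.352 log2 units to either side limits what could be detected.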
